A study of Ovis aries with 7 samples.

Results

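The mitochondrial respiratory chain and the ATP synthase of the fetal sheep hypothalamus were followed through 9 probes for 8 genes, of 15008 non-control probes on the array. A probe was taken when its gene name on the array began with NDUF, UQCR, SDH, ATP5 or COX and a digit, or was a mitochondrially coded name, or when its description named the NADH dehydrogenase, the cytochrome c oxidase, the ubiquinol-cytochrome c complex or the ATP synthase. The name found 5 probes and the description alone found the other 4. All 8 genes are nuclear coded, and 0 mitochondrially coded genes were found, so a comparison of the mitochondrial with the nuclear subunits was not analysed here. Matching was limited by the annotation. Of the 15008 probes, 13637 could be given no gene symbol, and 12959 were described by a cDNA clone. Further genes of the chain may therefore be on the array unmatched. Below, a gene is called on the array when a probe was matched to it.

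The respiratory chain passes electrons from NADH and succinate to oxygen through protein complexes of the inner mitochondrial membrane and pumps protons as it does so. Complex I oxidises NADH, complex II oxidises succinate, complex III oxidises ubiquinol, and complex IV, the cytochrome c oxidase, reduces oxygen. The ATP synthase lets the protons flow back through a ring of c subunits and makes ATP, most of which neurons spend on ion pumping.

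RNA came from the hypothalami of 7 late-gestation sheep fetuses carrying implanted catheters, with 1 single-colour array per fetus. In the hypoxia group (n = 3) the mother inhaled low-oxygen gas for 30 min, and the fetus then had 30 min of recovery at normal oxygen. The control group (n = 4) stayed at normal oxygen for the same time, and tissue of both groups was taken 60 min after the start. The labels give no breed, sex or exact fetal age, and the challenge was applied through the mother. Of 14 hypothalamic markers, 9 were on the array, and all 9 were tested, the peptide genes OXT, POMC, NPY and SST among them. Control replicate 4 stood apart from the other controls in several marker genes. Its level was -1.82 for GH, against -9.73 to -8.28, 1.13 for PRL, against -3.80 to -3.46, and -3.09 for FSHB, against -9.60 to -6.09, all 3 of them pituitary hormone genes. For OXT it was -1.12, against 1.84 to 2.57. Of the other pituitary markers, CGA was at -2.50 on this array, within the -6.47 to 1.39 of the other controls. LHB was at 2.31, against 1.93 to 2.30, and POU1F1 was well above background on 0 arrays. The part of this array in the results was measured by leaving it out. In such bulk tissue, fewer cells of a type and less RNA per cell cannot be told apart.

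Within complex I, the matched genes were NDUFA2 and NDUFA12, both accessory subunits outside the catalytic core. Within complex IV, they were COX5A, a structural subunit, and COX15, an enzyme of heme A synthesis that is needed to assemble the oxidase. Within the ATP synthase they were ATP5MC1 (LOC443410 on the array) and ATP5MC2 (LOC443542), which encode the same mature c subunit with different import sequences, and ATP5PD and ATP5PO (ATP5H and ATP5O on the array), the d and OSCP subunits of the peripheral stalk. ATP5MC1 had 2 of the 9 probes. The files give no genome position for any probe.

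The probes are 60 bases long, and none of the 9 shared a run of 20 bases with any other probe, on either strand. The stretches printed here show what the ATP synthase measurements rest on. The hexamer AATAAA or ATTAAA, in capitals, stands near the 3′ end of many transcripts. It was on the printed strand of 3 of the 9 probes and on the opposite strand of 0 of them, and on the printed strand of 8.07% and the opposite strand of 6.02% of all probes. Both strands were searched, and a probe holding both hexamers was counted once. Each stretch holds 30 bases.
ATP5MC1, probe A: ctaacctttaccATTAAAcacaatgtttct
ATP5MC2: cagaaggaagacaAATAAAtactgtattaa
ATP5PO: aacttggagcgacAATAAAatgcttcctga

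The ATP5PD probe was different. Its opposite strand read ATG at base 15, followed by an open frame of 15 codons, the ATG included, up to the last base. Its stretch shows that ATG as CAT, in capitals. The printed strand may therefore be the reverse of the transcript, which was not checked, since no transcript sequence was used here. If it is, this probe's values are no measure of ATP5PD mRNA. The gene counts and medians below include the probe by its array name only. Nor was the strand checked for the COX5A probe and for ATP5MC1 probes C and D described later, which also rest on cDNA clone reads. The values of these 4 probes, ATP5PD included, are given under the array's gene names.
ATP5PD: gtttccgtccagcCATcttgagatccttca

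All 9 probes were well above background on all 7 arrays, none had a saturated spot, and none of their values was left out. Levels are given as log2 of the processed signal minus the 75th percentile of the same array, so a level of 0 is that percentile. Levels of different probes are not set against each other, because each probe has its own hybridisation strength.

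No gene of the respiratory chain or the ATP synthase was called different between the hypoxia and control fetuses. After Benjamini-Hochberg adjustment over the 12711 tested probes, limma called none of the 9 at 0.05, and 0.0157% of the tested probes were called. Their adjusted p ran from 0.345 to 0.947. At an unadjusted p under 0.05 there were 0 of the 8 genes, against 15.7% of all tested probes. Of the 8 genes, 4 had a higher and 4 a lower mean in hypoxia, where the mean was lower for 45.3% of all tested probes. The median log2 difference was -0.01, beside 0.03 over all tested probes. Without control replicate 4 the median was 0.03, none of the 9 probes was called, and COX5A alone reached an unadjusted p under 0.05, with a log2 difference of 0.81. The median size of the difference, without its sign, was 0.12 for the 8 genes and 0.18 for all tested probes. In 1 of the 8 genes, COX15, the hypoxia and control values did not overlap, with higher values in hypoxia. Such groups were found for 16.2% of all tested probes, 8.76% with higher and 7.46% with lower values in hypoxia, so that count lies near the background.

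**Figure D1:**
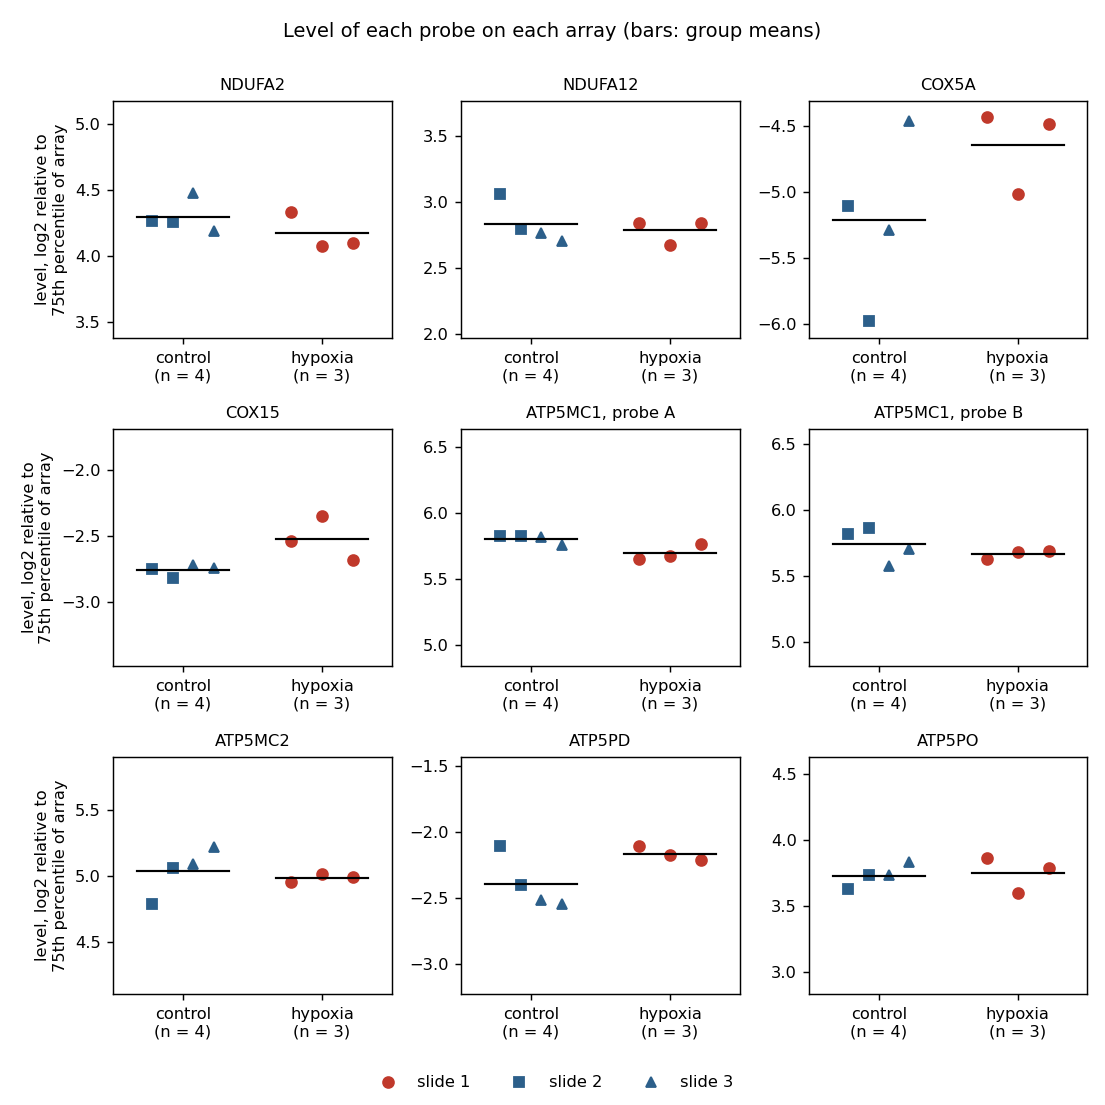
Level of each of the 9 probes on each array, as log2 of the processed signal relative to the 75th percentile of that array. Each point is 1 fetus, bars are group means, symbols show the slide, and every panel spans the same range, so that the wide scatter of COX5A (control values from -5.98 to -4.46) stands beside the narrow one of ATP5MC1 probe A (5.76 to 5.82).

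For complex I, NDUFA2 had levels of 4.33, 4.08 and 4.10 on hypoxia replicates 1 to 3 and of 4.26, 4.26, 4.47 and 4.19 on control replicates 1 to 4. The groups overlapped, and the highest value was that of control replicate 3. The group means were 4.17 ± 0.14 (SD, n = 3) and 4.29 ± 0.12 (SD, n = 4), a log2 difference of -0.13 (SE 0.12, 95% confidence interval -0.40 to 0.15, adjusted p = 0.620 in limma).

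NDUFA12 had levels of 2.84, 2.68 and 2.85 in hypoxia and of 3.07, 2.80, 2.77 and 2.71 in the controls. Control replicate 1 was the highest, and the other 3 controls lay within the range of the hypoxia arrays. Its log2 difference was -0.05 (SE 0.12, interval -0.33 to 0.24, adjusted p = 0.880 in limma). The difference of NDUFA2 was about as large as its SD in either group, and that of NDUFA12 was smaller than its SD in both.

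For complex IV, the COX15 probe comes from a partial coding sequence and is printed whole because it was the only one of the 9 with groups that did not overlap.
COX15: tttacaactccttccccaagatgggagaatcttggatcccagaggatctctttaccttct
Its levels were -2.53, -2.35 and -2.68 in hypoxia and -2.75, -2.82, -2.72 and -2.74 in the controls. The lowest hypoxia value, that of replicate 3, lay just above the highest control value, also that of replicate 3. The means were -2.52 ± 0.17 (SD, n = 3) and -2.76 ± 0.04 (SD, n = 4), which is 1.18-fold (log2 difference 0.24, SE 0.11, interval -0.02 to 0.49). This did not pass the threshold (unadjusted p = 0.0637 and adjusted p = 0.345 in limma). Without hypoxia replicate 2 the difference was 0.15. Its size was 0.26 against control slide 2 alone and 0.21 against control slide 3 alone.

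COX5A had the widest scatter of the 9 probes, with levels of -4.44, -5.02 and -4.49 in hypoxia and of -5.11, -5.98, -5.29 and -4.46 in the controls. Control replicate 4 lay among the hypoxia values and control replicate 2 far below all others. The processed signals behind these levels were small, from 32.0 on control replicate 2 to 119.7 on hypoxia replicate 1. The log2 difference of 0.57 (SE 0.34, interval -0.22 to 1.35, adjusted p = 0.438 in limma) was smaller than the difference of 0.67 between the means of the pair of control slides. It was 0.31 without control replicate 2, 0.90 against control slide 2 alone and 0.23 against control slide 3 alone.

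For the ATP synthase, the c subunits form the ring that turns as protons pass. ATP5MC1 probe A had levels of 5.65, 5.67 and 5.76 in hypoxia and of 5.82, 5.82, 5.81 and 5.76 in the controls. Hypoxia replicate 3 reached the level of control replicate 4, and the other hypoxia arrays lay below every control. The means were 5.70 ± 0.06 (SD, n = 3) and 5.80 ± 0.03 (SD, n = 4), a log2 difference of -0.11 (SE 0.09, interval -0.32 to 0.10, adjusted p = 0.571 in limma). This SE was the smallest of the 9.

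ATP5MC1 probe B had levels of 5.63, 5.69 and 5.69 in hypoxia and of 5.82, 5.86, 5.58 and 5.71 in the controls. The controls of slide 2 lay above the hypoxia arrays and those of slide 3 on both sides of them. The log2 difference was -0.07 (SE 0.11, interval -0.32 to 0.18, adjusted p = 0.771 in limma).

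ATP5MC2, the second c subunit gene, had levels of 4.96, 5.02 and 4.99 in hypoxia and of 4.79, 5.06, 5.09 and 5.22 in the controls. All 3 hypoxia values lay within the control range, and the hypoxia SD was 0.03, against 0.18 for the controls. The log2 difference was -0.05 (SE 0.12, interval -0.34 to 0.23, adjusted p = 0.863 in limma).

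For the peripheral stalk, ATP5PO had levels of 3.87, 3.60 and 3.79 in hypoxia and of 3.63, 3.74, 3.73 and 3.84 in the controls. The hypoxia arrays held both the highest and the lowest value. This gave a log2 difference of 0.02 (SE 0.11, interval -0.23 to 0.27, adjusted p = 0.947 in limma).

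ATP5PD had levels of -2.11, -2.17 and -2.21 in hypoxia and of -2.11, -2.40, -2.51 and -2.55 in the controls. Control replicate 1 lay at the level of the highest hypoxia array and the other 3 controls below all of them. The log2 difference was 0.23 (SE 0.13, interval -0.07 to 0.53, adjusted p = 0.419 in limma). It was 0.09 against control slide 2 alone and 0.37 against control slide 3 alone. The mean of control slide 3 minus that of control slide 2 was -0.28, larger in size than the hypoxia difference. The strand of this probe was not checked, so these values rest on the array's gene name.

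By precision, the 6 probes of NDUFA2, NDUFA12, ATP5MC1, ATP5MC2 and ATP5PO had log2 differences from -0.13 to 0.02. The 95% confidence intervals of these 6 lay between -0.40 and 0.27, so a group difference of more than 1.32-fold in either direction fell outside every one of them. The intervals make no separate allowance for slide, which cannot be told apart from hypoxia. Control slide 3 minus control slide 2 was 0.23 for ATP5MC2, -0.20 for ATP5MC1 probe B, -0.20 for NDUFA12 and 0.10 for ATP5PO. Each was larger in size than that probe's hypoxia difference. It was smaller for NDUFA2, at 0.07, and ATP5MC1 probe A, at -0.04. For COX15 and ATP5PD the interval reached 1.41-fold and 1.45-fold, both higher in hypoxia. For COX5A it reached 2.56-fold, so the interval leaves room for a doubling of COX5A. The SE was below the 0.15 median of all tested probes for 8 of the 9 probes, and 0.34 for COX5A.

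**Figure D2:**
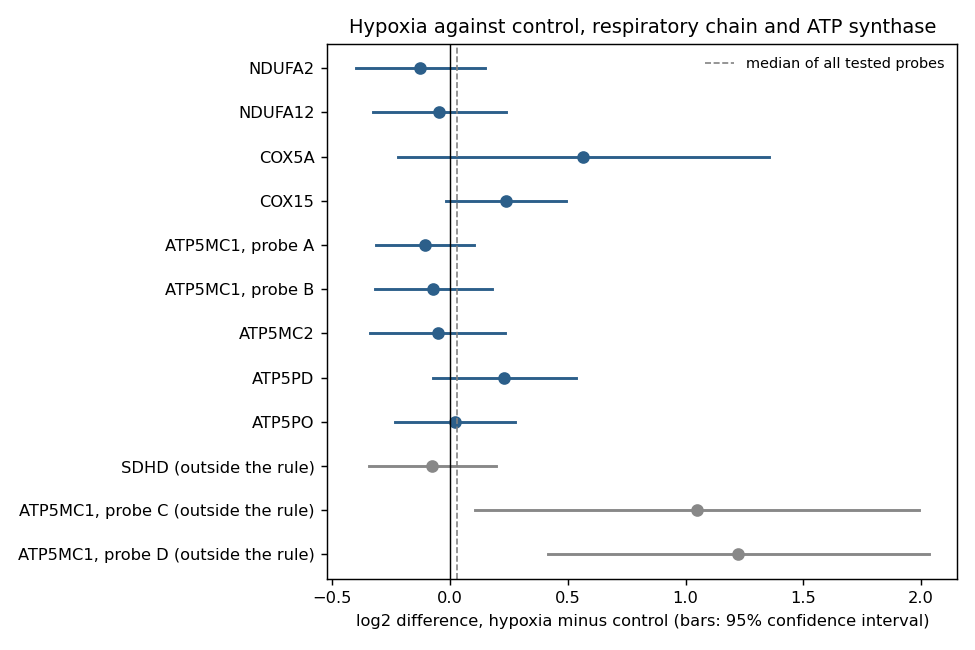
Log2 difference of hypoxia minus control for the 9 probes (blue) and for 3 related probes that the selection rule leaves out (grey), with 95% confidence intervals from the limma fit. The intervals of all 9 probes include 0, and those of ATP5MC1 probes C and D, from 0.11 to 1.99 and from 0.42 to 2.03, do not.

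The rule left out a complex II gene and a further pair of probes annotated to ATP5MC1, all 3 described here because they bear on the same complexes. SDHD, an anchor subunit of complex II (LOC780442 on the array, named from its description), had levels of 1.10, 0.80 and 1.05 in hypoxia and of 1.13, 1.10, 1.10 and 0.92 in the controls. The groups overlapped, with hypoxia replicate 2 the lowest. The difference was -0.08 on the log2 scale (SE 0.12, interval -0.35 to 0.19, adjusted p = 0.776 in limma). No complex III gene was found by name or description.

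ATP5MC1 probes C and D carry the same array name as probes A and B, but their description gives only a cDNA clone, a clone that is also listed for probe B. They share 59 of 60 bases with each other, so they are close to 1 measurement made on 2 spots. Their first 30 bases, beside those of probe B, show that shift by a single base.
ATP5MC1, probe B: tctgtttgatggtcgccttcctcatcctct
ATP5MC1, probe C: aatcacaccctgcagtctgagcattctgta
ATP5MC1, probe D: taatcacaccctgcagtctgagcattctgt
Probe C had levels of -2.87, -2.80 and -3.12 in hypoxia and of -3.51, -5.17, -3.79 and -3.45 in the controls. Probe D had levels of -2.72, -2.92 and -2.98 in hypoxia and of -3.72, -5.08, -4.03 and -3.56 in the controls. On both probes every hypoxia value lay above every control value, as for 8.76% of all tested probes. Control replicate 2 lay far below the other controls on both.

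The log2 differences of probes C and D were 1.05 (SE 0.40, unadjusted p = 0.0337, adjusted p = 0.284 in limma) and 1.22 (SE 0.35, unadjusted p = 0.00857, adjusted p = 0.204 in limma), where 8.75% of all tested probes were higher at an unadjusted p under 0.05. Neither passed the adjusted threshold. Without control replicate 2 they were 0.65 and 0.89, and with normexp background correction 0.74 and 0.89. The processed signals were small, from 56.2 for probe C on control replicate 2 to 393.7 for probe D on hypoxia replicate 1. Against control slide 2 alone the differences were 1.41 and 1.53, and against control slide 3 alone 0.69 and 0.92. Within each array, the mean of probes C and D minus the mean of probes A and B ran from -8.78 to -8.44 in hypoxia and from -10.97 to -9.23 in the controls, a difference of 1.23 between the groups. This contrast was chosen after the values were seen and is given with no test.

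**Figure D3:**
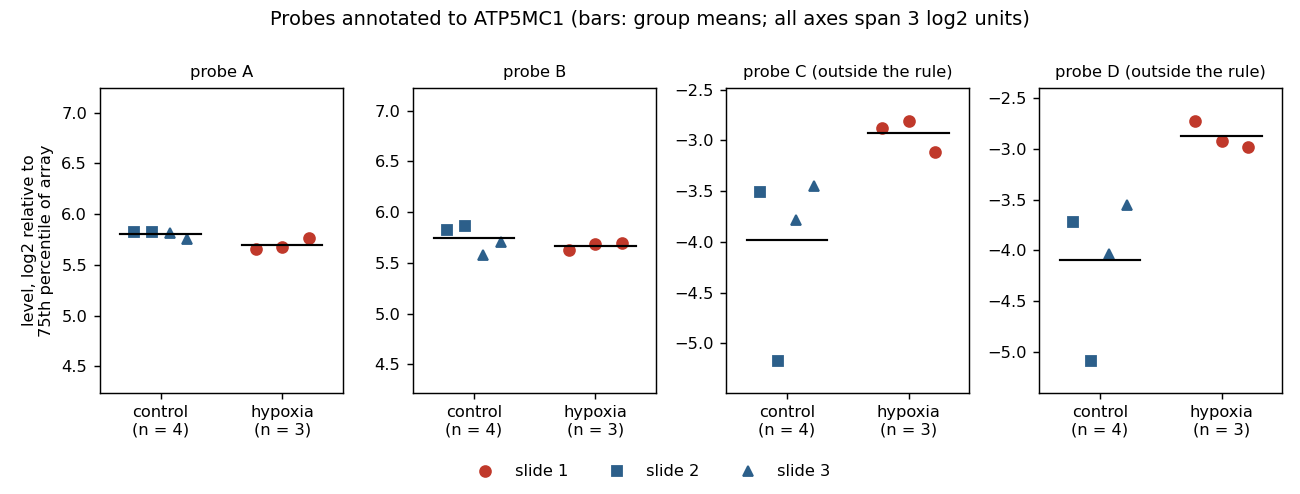
Level of the 4 probes annotated to ATP5MC1 on each array, relative to the 75th percentile of that array, with points for fetuses, bars for group means and axes of equal span. Probes A and B differed by -0.11 and -0.07 between the groups, and probes C and D by 1.05 and 1.22, with control replicate 2 at -5.17 and -5.08.

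Some of the small differences turned sign with the arrays or the scaling used. Over 19 alternatives, the differences of NDUFA2, COX5A, COX15, ATP5PD and ATP5MC1 probe A kept their sign. Those of NDUFA12, ATP5MC2 and ATP5PO turned under 3, 3 and 4 of them, and that of ATP5MC1 probe B under 1. No probe of the 9 passed the adjusted threshold under any of the 19. A single gene reached an unadjusted p under 0.05 in 7 of them. It was COX5A with normexp background correction, against control slide 2 alone, with the replicate block and without control replicate 4, ATP5PD against control slide 3 alone and without control replicate 1, and COX15 without hypoxia replicate 3.

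**Figure D4:**
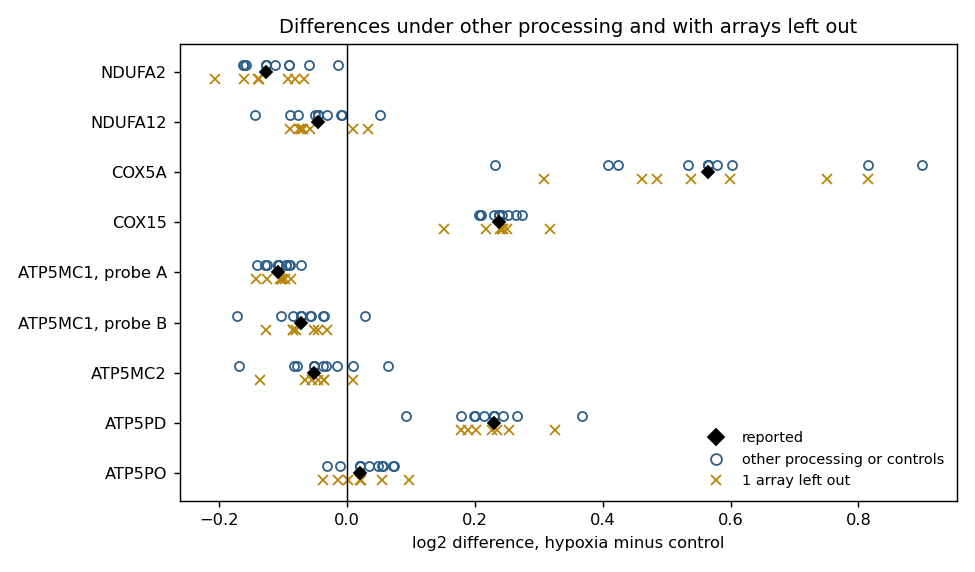
Log2 difference of hypoxia minus control for the 9 probes as reported (diamonds), under other processing or other choices of controls (circles) and with 1 array left out (crosses). The values of COX5A spread from 0.23 to 0.90, and those of ATP5PO from -0.04 to 0.10, across 0.

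Beside the respiratory chain, lists of genes that feed or regulate it were examined. None of these genes passed the adjusted threshold in limma. Of 17 carriers and import genes, 6 were on the array and 5 were tested, with a median log2 difference of 0.19 and 4 of the 5 higher in hypoxia. That count and median include UCP1, described below, which entered the test through the hypoxia arrays. The others were SLC25A5 at 0.27, VDAC1 at 0.19, SLC25A4 at 0.13 and SLC25A6 at -0.13. The mean was lower in hypoxia for 45.3% of all tested probes. SLC25A5, an ADP/ATP carrier that exchanges the product of the synthase across the inner membrane, had levels of 4.35, 4.53 and 4.28 in hypoxia and of 4.32, 4.04, 4.08 and 4.00 in the controls. Control replicate 1 lay among the hypoxia arrays and the other 3 controls below them, a log2 difference of 0.27 (SE 0.12, adjusted p = 0.329 in limma).

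UCP1, the uncoupling protein of brown fat, which lets protons bypass the ATP synthase, lay near the detection limit. Its probe was well above background on 3 of 3 hypoxia arrays and on 1 of 4 control arrays. Its levels were -6.23, -7.09 and -4.29 in hypoxia and -8.54, -9.14, -7.63 and -8.51 in the controls. The groups did not overlap, with higher values in hypoxia, as for 8.76% of all tested probes. Hypoxia replicate 3 was the highest. The fitted log2 difference was 2.58, and 0.84 with normexp background correction. The probe entered the test through the hypoxia arrays, where it was high, and 3 of its 4 control values were not well above background, so the fit is given as a description with no p.

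Of 25 genes of the citric acid cycle and pyruvate use, 1 was on the array, IDH1, a cytosolic enzyme, with a log2 difference of -0.996 (SE 0.22, adjusted p = 0.145 in limma). Of 10 genes of mitochondrial biogenesis, 3 were tested and all 3 had a higher mean in hypoxia, with a median of 0.19. NRF1, a transcription factor for nuclear genes of the respiratory chain, had a difference of 0.77 (SE 0.36, adjusted p = 0.346 in limma), which was 0.44 without control replicate 1 and 0.31 with normexp. Its levels were -4.43, -4.64 and -4.55 in hypoxia and -6.30, -4.61, -5.08 and -5.24 in the controls, so control replicate 1 was far below the rest and control replicate 2 lay among the hypoxia arrays. PPARGC1A, a coactivator of the same programme, had a difference of 0.19 (SE 0.18, adjusted p = 0.633 in limma), which ran from 0.028 without hypoxia replicate 3 to 0.34 without hypoxia replicate 1.

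Of 20 glycolysis genes, 5 were tested, 2 of them higher and 3 lower, with a median of -0.10. HK1, the hexokinase that binds the outer mitochondrial membrane, had levels of -0.10, -0.02 and -0.04 in hypoxia and of 0.51, 0.32, 0.26 and 0.11 in the controls. HK1 did not overlap between the groups, with lower values in hypoxia, as for 7.46% of all tested probes. Its log2 difference was -0.36 (SE 0.12, unadjusted p = 0.0169, adjusted p = 0.243 in limma), and it stayed between -0.47 and -0.24 over the alternatives. The glucose transporter gene SLC2A3 had a difference of 0.27 (SE 0.12, adjusted p = 0.346 in limma). Its groups did not overlap either, with higher values in hypoxia, as for 8.76% of all tested probes. Hypoxia replicate 1 at 3.607 lay just above control replicate 2 at 3.604.

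Of 11 hypoxia-responsive regulators of respiration, 2 were tested. EPAS1, which encodes the oxygen-regulated factor HIF-2 alpha, had levels of -5.78, -5.49 and -5.75 in hypoxia and of -6.98, -6.44, -6.08 and -6.59 in the controls. The groups did not overlap, with higher values in hypoxia, as for 8.76% of all tested probes. EPAS1 was well above background on 3 of 3 hypoxia arrays and on 2 of 4 control arrays. The fitted log2 difference was 0.85, and 0.34 with normexp, and it too entered the test through the hypoxia arrays and is a description with no p. HIF1A had a difference of 0.17 (SE 0.18, adjusted p = 0.664 in limma), and of 0.035 without control replicate 1. Over the 5 lists, IDH1 and HK1 were the 2 of the 16 tested genes with a lower mean at an unadjusted p under 0.05, where 6.91% of all tested probes were lower.

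**Figure D5:**
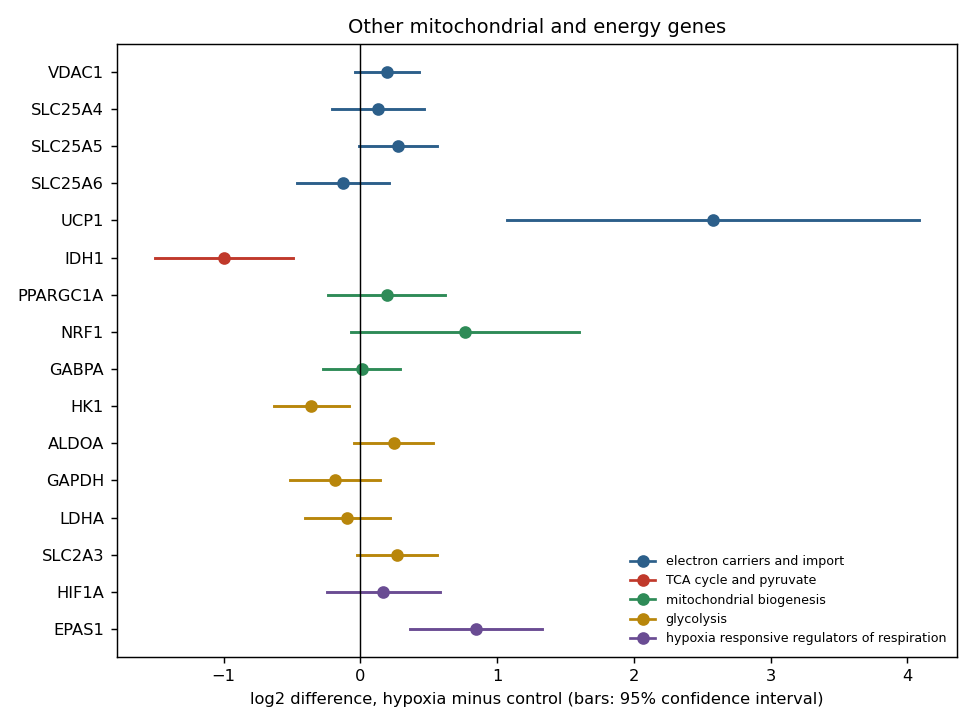
Log2 difference of hypoxia minus control, with 95% confidence intervals, for the 16 tested genes of the 5 energy lists, coloured by list. The intervals of IDH1 and HK1 lie below 0, and UCP1 at 2.58, with the widest interval, and EPAS1 at 0.85 were not well above background on all control arrays. UCP1 and EPAS1 entered the test through the hypoxia arrays, so the intervals drawn for them are a description and not a test.

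Each slide held 1 group. Slide 1 carried all 3 hypoxia arrays, slide 2 carried control replicates 1 and 2, and slide 3 carried control replicates 3 and 4, so slide and hypoxia cannot be told apart. The share of spots scored well above background was 77.2% on the lowest and 86.4% on the highest of the 7 arrays, both of them controls. Cell type markers are given beside the respiratory genes. Astrocyte markers (4 of 9 on the array) had a higher mean in hypoxia in 4 of 4, with a median of 0.48. Their summed level, on the same log2 scale, ran from 5.71 to 5.98 in hypoxia and from 5.24 to 5.82 in the controls. These sums overlapped, but the mean deviation from each gene's average, with genes weighted equally, did not. It ran from 0.17 to 0.31 in hypoxia and from -0.55 to 0.06 in the controls. SLC4A4 and GJA1 had the smallest p, at 0.45 and 0.56 (adjusted p = 0.245 and 0.270 in limma). Meningeal and fibroblast markers (6 of 8 on the array) had a lower mean in 6 of 6, with a median of -0.59, and summed levels from 5.62 to 5.97 in hypoxia and from 6.23 to 6.70 in the controls. That sum weighs bright probes most, above all VIM, which astrocytes and radial glia express too. With each gene weighted equally, the mean deviation from the gene's average overlapped, from -0.80 to -0.04 in hypoxia and from -0.37 to 0.68 in the controls. IGFBP2 and VIM had the smallest p, at -0.93 and -0.49 (adjusted p = 0.225 and 0.235 in limma). The part of either list in the values of the respiratory genes was not tested.

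Endothelial markers (4 of 8 on the array) had a lower mean in hypoxia in 4 of 4, with a median of -0.29, KDR at -0.51 and FLT1 at -0.28, and FLT1 turned to 0.08 with normexp. Microglial markers had a median of 0.19 over 2 genes, ITGAM at 0.22 and CD14 at 0.15. Hypothalamic markers had a median of -0.09 over 9 genes, with GHRH at 0.94 and AGRP at 0.30. GHRH was at 0.28 without control replicate 1, whose level of -4.19 was the lowest, and at 0.037 against control slide 3 alone. AGRP was at 0.018 without control replicate 2 and at -0.20 against control slide 3 alone. Pituitary markers had a median of 0.39 over 3 tested genes, with LHB at 0.39 and PRL at -2.08, the latter -0.88 without control replicate 4. Erythroid markers had a median of -0.33 over 3 genes, with CA1 at -0.63 and HBB at 0.67. HBB was at 1.35 without control replicate 4, whose level was 5.20 against 2.03 to 2.94 on the other controls, and at 0.29 without control replicate 2. CA1 was at 0.091 without hypoxia replicate 3 and at -1.13 without hypoxia replicate 2. Neuron and oligodendrocyte markers could not be read, with 0 of 11 and 0 of 7 matched on the array.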

How the data were processed

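Hypothalamic RNA labelled with Cy3 was hybridised to Agilent sheep arrays, 1 per fetus. Per the file headers, Agilent Feature Extraction 10.1.1.1 gave each spot's processed intensity after background subtraction, spatial detrending and surrogates for signals not above background. The deposited value table holds log2 of that intensity, equal within 5e-09, without scaling between arrays, as the values show; they are single-colour levels, uncentred, with no direction. Its medians are 8.80, 8.59 and 8.73 for hypoxia replicates 1 to 3 and 8.42, 8.45, 8.99 and 8.70 for control replicates 1 to 4.

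Reported levels are log2 processed intensity minus each array's 75th percentile over non-control spots. Control spots and 62 outlier spots were excluded (34 probe values then missing), and repeated spots averaged. The test took the 12711 of 15008 probes scored well above background on 3 or more of the 7 arrays, using limma 3.58.1 (R 4.3.3), lmFit and eBayes, 2-sided, with Benjamini-Hochberg adjustment at 0.05 over all of them. A gene was represented by its probe with the highest mean level. Symbols came from the RefSeq table of ARS-UI_Ramb_v3.0 by accession (727 probes), gene ID (139), symbol (484) or synonym (20), and NDUFA2 from its description. The files name no build, so no coordinates are given. The number of arrays limits the precision.

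All member probes were given. In the other lists, the pair of genes with the smallest unadjusted p was named. Members and lists were chosen with earlier results of these data known. Alternatives were other scalings, normexp with an offset of 50, the deposited values, other filters, a random slide effect, hypoxia against either control slide, the replicate number as a block, 6 arrays in place of 7, a trended robust prior, and the mean over a gene's probes. The fit was tested on simulated data with the means and SDs of the real probes, 200 of them changed by known folds. At the adjusted threshold it called 21.8% of the 1.5-fold, 64.7% of the 2-fold and 89% of the 4-fold changes. The real fit called 2 of 12711 probes. With fewer calls, the unadjusted p needed for a call is smaller, so these shares may overstate recovery in the real data. Of all calls, 5.48% were false.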

Additional observations from a re-analysis of the deposited data

Results flagged for a closer look

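Of 35 sets of 4 control values examined, 4 held a value far from the remaining 3, which chance gives in about 1 in 20 such sets. ATP5MC1 probe A had a level of 5.76 on control replicate 4, with the remaining controls at 5.81 to 5.82. SDHD had a level of 0.92 on control replicate 4, against 1.10 to 1.13. PPARGC1A had a level of -4.48 on control replicate 3, against -4.08 to -4.01. PRL had a level of 1.13 on control replicate 4, against -3.80 to -3.46.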

How the results depend on the processing

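No member probe passed the adjusted threshold under any of 20 alternatives, 1 of which was added after the data were seen. The count of genes at an unadjusted p under 0.05 was 1 with normexp, against control slide 2 alone, against control slide 3 alone and with SDHD and ATP5MC1 probes C and D included, an alternative chosen after seeing the data. Leaving out 1 array gave 0 to 1. The median log2 difference was 0.068 against control slide 2 alone and ran from -0.036 to 0.054 with 1 array left out. Single differences turned sign as follows. ATP5PO was at -0.011 with median scaling and -0.031 against control slide 3 alone. ATP5MC2 was at 0.064 against control slide 2 alone. ATP5MC1 probe B and NDUFA12 were at 0.029 and 0.052 against control slide 3 alone, where AGRP and HBB were at -0.20 and -0.0092. FLT1 was at 0.077 with normexp. With 1 array left out, ATP5PO ran from -0.037 to 0.10, NDUFA12 from -0.088 to 0.032, ATP5MC2 from -0.14 to 0.0091, SDHD from -0.14 to 0.015 and CA1 from -1.13 to 0.091. The cause was not tested. The estimated correlation within slides was -0.03, so that block made no allowance for slide differences.

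Nothing in the labels says that replicate numbers pair fetuses. Same-numbered arrays correlated at 0.12, 0.09 and 0.11 in their deviations from the group means. Among replicates 1 to 3, each array correlated best with its own number in the other group, a hint from the data only. Control replicate 4 was not part of that comparison. With the replicate block, which makes no use of control replicate 4, the count of genes was 1, the median 0.03 and ATP5MC2 at 0.0091, with 0 probes past the adjusted threshold. No mitochondrially coded gene was found, so no alternative could give a value for those.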
